A study of Mus musculus with 8 samples.

Results

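The immunoglobulin heavy chain variable segments (Ighv) are the germline gene pieces that encode most of the variable domain of an antibody heavy chain. They were taken as all genes whose symbol begins with Ighv and that carry a transcript of the type IG_V_gene, which gave 113 of the 52661 genes in the deposited tables. Their RNA was measured in C57BL/6 mouse intraepithelial lymphocytes, sorted by flow cytometry for the leukocyte protein CD45 and cultured for 24 h in serum-containing medium. Cells received recombinant osteopontin at 2 µg/ml, a secreted ligand of CD44 and integrins (4 libraries, named 1, 2, A and B), or no osteopontin (4 libraries of the same names, called null by the submitters). Whether the libraries came from separate mice or cultures is not said in the labels, and p-values therefore reflect variation among these libraries, some of which may be technical. The study asked how gene expression differed with osteopontin, and the libraries held between 49108969 and 71399847 estimated reads.

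In a developing B cell, recombination joins 1 variable, 1 diversity and 1 joining segment of the heavy chain locus, and the promoter of the chosen variable segment then drives the rearranged gene. Each B cell clone and its plasma cell offspring therefore express a single productive variable segment, so the mixture of Ighv transcripts in a sample reflects which clones it holds and how much heavy chain RNA each makes. Intestinal plasma cells secrete mostly IgA, and a plasma cell holds far more immunoglobulin RNA than a resting B cell. In bulk libraries such as these, fewer cells of a type and less RNA per cell cannot be told apart.

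All 113 segments matched the GENCODE M21 annotation by gene identifier and lay on chromosome 12, on the minus strand, between 113578504 and 116000461 on GRCm38. The build behind the deposited tables is not given in the sources used here. Ighv segments arose by duplication, and a median segment shared 95.1% of its aligned coding bases with its nearest member, and 14 of 113 shared more than 98%. The last 300 coding bases of Ighv1-26, the most used segment, are shown 5′ to 3′ from the GENCODE M21 transcript beside those of its nearest member, Ighv1-18 (114682632 to 114683065), with the bases at which they differ in capitals (8 in the stretch shown).
Ighv1-26: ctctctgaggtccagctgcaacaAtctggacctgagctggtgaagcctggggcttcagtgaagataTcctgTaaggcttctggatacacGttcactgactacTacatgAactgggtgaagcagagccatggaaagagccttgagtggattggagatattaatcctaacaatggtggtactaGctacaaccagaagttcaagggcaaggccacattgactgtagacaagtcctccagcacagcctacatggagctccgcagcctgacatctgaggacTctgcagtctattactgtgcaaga
Ighv1-18: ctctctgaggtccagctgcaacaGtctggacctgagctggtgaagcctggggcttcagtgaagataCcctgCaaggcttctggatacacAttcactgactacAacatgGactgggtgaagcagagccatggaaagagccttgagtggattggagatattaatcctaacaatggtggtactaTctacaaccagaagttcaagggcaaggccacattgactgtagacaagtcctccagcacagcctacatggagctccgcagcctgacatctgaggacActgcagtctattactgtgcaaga
Over the whole coding sequence the pair differed at 11 of 351 bases (96.9% identity), and long stretches held no distinguishing base. Among the 31-base words of Ighv1-26 transcripts, 25.2% were found in no other Ighv gene or pseudogene, against a median of 55.6% over the 113 members. Ighv14-2 and its nearest member, Ighv14-1, are shown for the same reason. They differed at 10 of 351 coding bases, 9 of them in the last 300 bases shown, in capitals, and their reads were spread over the libraries in different ways.
Ighv14-1: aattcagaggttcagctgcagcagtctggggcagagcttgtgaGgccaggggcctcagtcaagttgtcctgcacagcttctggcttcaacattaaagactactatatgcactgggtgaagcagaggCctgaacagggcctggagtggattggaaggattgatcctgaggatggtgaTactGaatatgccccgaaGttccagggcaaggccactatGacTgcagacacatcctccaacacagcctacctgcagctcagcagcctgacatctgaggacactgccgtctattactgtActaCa
Ighv14-2: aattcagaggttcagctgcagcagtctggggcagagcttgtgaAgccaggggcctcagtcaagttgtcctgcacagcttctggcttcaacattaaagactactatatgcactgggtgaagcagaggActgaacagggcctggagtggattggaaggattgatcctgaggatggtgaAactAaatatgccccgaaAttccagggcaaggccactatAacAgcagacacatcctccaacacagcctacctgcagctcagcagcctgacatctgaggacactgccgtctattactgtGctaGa
The last 60 coding bases of the other 8 segments with the highest mean usage are shown because the heavy chain's antigen-contacting junction starts there, just after the conserved cysteine codon, which is in capitals.
Ighv5-17: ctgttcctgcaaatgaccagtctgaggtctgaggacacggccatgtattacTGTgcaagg
Ighv9-3: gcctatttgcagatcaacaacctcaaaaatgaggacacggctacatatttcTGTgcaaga
Ighv10-1: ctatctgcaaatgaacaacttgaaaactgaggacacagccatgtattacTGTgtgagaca
Ighv3-6: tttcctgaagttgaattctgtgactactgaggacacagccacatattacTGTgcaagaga
Ighv1-55: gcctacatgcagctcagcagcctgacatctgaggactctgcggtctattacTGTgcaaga
Ighv1-82: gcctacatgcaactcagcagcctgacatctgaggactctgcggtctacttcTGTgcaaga
Ighv1-72: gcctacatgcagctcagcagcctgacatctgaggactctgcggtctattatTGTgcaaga
Ighv1-9: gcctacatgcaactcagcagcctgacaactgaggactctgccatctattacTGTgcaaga
Searched on the coding strand, the last 40 coding bases held the letters TACTGTGC, which span that codon, in 66 of 113 members (58.4%). Of the segments shown here, the tails of Ighv9-3, Ighv10-1, Ighv1-82, Ighv1-72 and Ighv14-1 lack them. Ighv1-72 had the fewest distinguishing words, 1.91%, and differed from Ighv1-62-3 at 3 bases, so its reads and those of its near copies are uncertain individually.

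Ighv transcripts were a small part of every library. They took 0.0523%, 0.122%, 0.137% and 0.0621% of all reads in osteopontin libraries 1, 2, A and B, against 0.0748%, 0.107%, 0.149% and 0.0637% in the null libraries of those names. This came to between 30519 and 83422 reads with osteopontin and between 41757 and 106253 without. Both groups held high and low libraries, and the A and 2 libraries were the highest of each. On library totals scaled by the TMM method of edgeR, the summed level was 932.0 ± 421.8 CPM (reads scaled to the library total) with osteopontin and 986.7 ± 380.0 CPM without (SD, n = 4 each). The log2 ratio of these means, -0.08, was far smaller than the spread between libraries, and the groups overlapped.

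The Ighv total was ordered much as the IgA transcripts were. Igha, which encodes the constant region of IgA, stood at 2592, 4808, 5826 and 2714 CPM in osteopontin libraries 1, 2, A and B, against 3117, 4730, 6583 and 1884 CPM in the null libraries. Jchain, the joining chain of secreted IgA and IgM, stood at 410.2, 884.3, 953.5 and 381.9 CPM with osteopontin, against 515.5, 780.6, 1015 and 339.0 CPM without. The 4 libraries named 2 or A were the highest for Ighv, Igha and Jchain alike. Ighm, the constant region of IgM and the isotype of resting B cells, did not follow that order. It stood at 933.2, 783.6, 784.0 and 808.2 CPM with osteopontin, against 846.3, 815.5, 920.3 and 1473 CPM without, and null library B was the highest. In that library Ighm made up 40.9% of the heavy chain constant reads and Igha 52.3%, while in the other 7 libraries Igha made up between 69.6% and 85.5%.

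**Figure D1:**
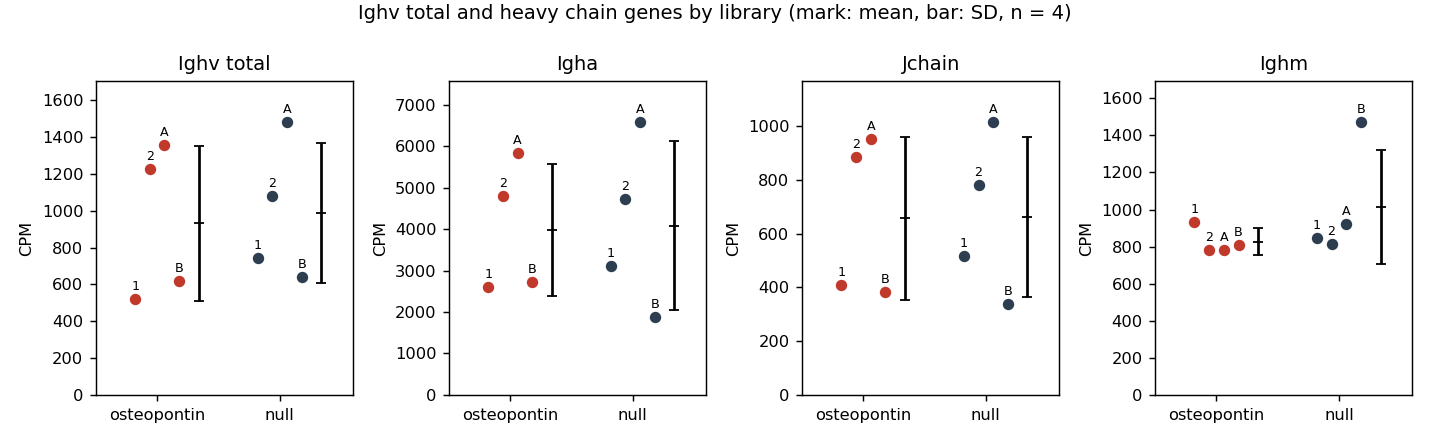
Level (CPM, linear axis from 0) of the summed Ighv segments, Igha, Jchain and Ighm in each library, with osteopontin libraries at the left and null libraries at the right of each panel; points are libraries marked by name, the horizontal mark is the mean and the bar the SD (n = 4). Ighv, Igha and Jchain are highest in the libraries named 2 and A of both groups, and the groups overlap in all 4 panels.

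For every 100 reads on heavy chain constant genes there were 14.0, 21.4, 19.9 and 16.6 Ighv reads in osteopontin libraries 1, 2, A and B, against 17.8, 18.6, 19.2 and 17.8 in the null libraries. The ratio averaged 17.98 ± 3.29 with osteopontin and 18.3 ± 0.707 without (SD, n = 4 each). These are reads and not per-length levels, and a variable segment is shorter than a constant region.

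Usage was concentrated on a few segments. The 10 with the highest mean share took 55.9% of Ighv reads, averaging the libraries equally. A share carries a counting error of at most 0.409 percentage points (upper arm of the 95% Wilson interval, the widest over all segments and libraries), and intervals cover counting error only. Ighv1-26 (114788372 to 114788805) came first in 7 of 8 libraries. It took 20.0%, 27.0%, 24.7% and 12.5% of Ighv reads in osteopontin libraries 1, 2, A and B, against 22.4%, 25.1%, 29.8% and 8.87% in the null libraries. The B libraries were the lowest of each group. Of the 31-base words of Ighv1-26 transcripts, only 25.2% were found in no other Ighv gene or pseudogene. The reads of Ighv1-26 are thus uncertain individually, beyond counting error. In null library B the leading segment was Ighv1-82 (115952538 to 115953005) at 15.0%, a segment at 0.11% to 2.82% in the other 7 libraries.

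3 segments, Ighv1-26, Ighv9-3 and Ighv3-6, took at least 1% in every library. Ighv9-3 (114140692 to 114141122) took 3.51%, 4.0%, 1.24% and 11.8% in osteopontin libraries 1, 2, A and B, against 2.45%, 4.41%, 1.61% and 9.86% in the null libraries. Ighv3-6 (114288152 to 114288582) took 2.35%, 2.05%, 3.07% and 11.8% with osteopontin, against 1.86%, 2.43%, 1.52% and 6.75% without. Both segments were highest in the B libraries of either group. Ighv1-55 (115208095 to 115208591) was close to that level throughout, at 1.35% to 6.46% with osteopontin and 0.95% to 4.52% without.

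Most other segments were prominent in some libraries and nearly missing from others. Of 57 segments that reached 1% in at least 1 library, 47 were under 0.1% in at least 1 other, and 15 reached 1% in a single library. Ighv10-1 (114479005 to 114479451) had 0.31, 195.4, 1.56 and 1.16 CPM in osteopontin libraries 1, 2, A and B, against 0.44, 97.4, 14.3 and 37.2 CPM in the null libraries. It was the second most used segment of osteopontin library 2, at 15.9%, and took 9.003% in null library 2. Ighv1-72 (115757984 to 115758461), known from the mouse response to nitrophenyl haptens, stood at 2.61, 9.16, 74.6 and 0.53 CPM with osteopontin, against 29.0, 16.05, 127.1 and 1.67 CPM without, and was highest in the A library of each group. Ighv14-2 (113994469 to 113994898) stood at 15.0, 12.4, 154.0 and 74.2 CPM with osteopontin, against 17.7, 2.26, 92.2 and 1.35 CPM without. It was thus high in both A libraries but differed widely between the B libraries. Ighv5-17 (113859149 to 113859670) stood at 14.9 to 132.6 CPM with osteopontin, with library A highest, and at 2.34 to 112.6 CPM without, with library 2 highest. With osteopontin, Ighv1-9 (114583569 to 114584002) had 1.09, 49.6, 2.31 and 21.7 CPM in libraries 1, 2, A and B, against 2.53 CPM in null library B and 25.01 to 49.4 CPM in the other null libraries.

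**Figure D2:**
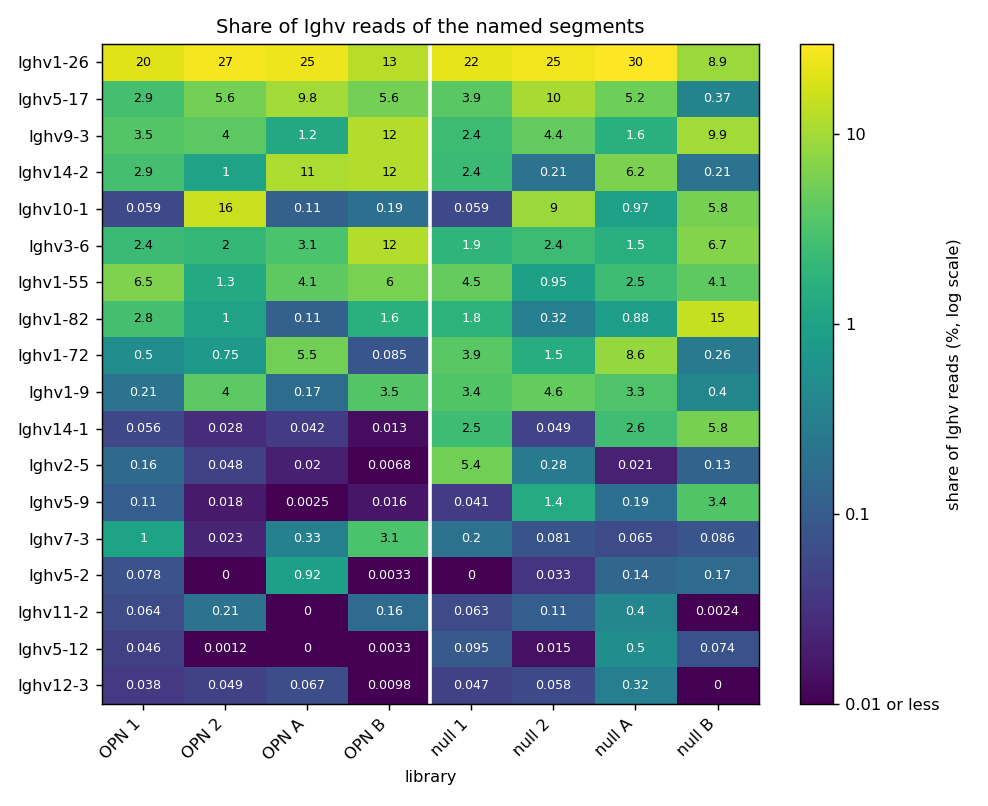
Share of Ighv reads (percent, colour on a log scale, values printed in the cells) of the 18 named segments, in rows by mean share, for the osteopontin (OPN) libraries at the left and the null libraries at the right of the white line. Ighv1-26 leads all libraries but null B, Ighv1-82 is high in null B, and Ighv10-1 is high in OPN 2, null 2 and null B.

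The evenness of usage was summarised as an effective number, the count of equally used segments that would give the same Shannon entropy. With osteopontin it came to 27.9, 19.5, 19.9 and 17.7 for libraries 1, 2, A and B, against 27.3, 21.7, 21.5 and 21.3 in the null libraries. The means were 21.3 ± 4.53 with osteopontin and 22.9 ± 2.94 without (SD, n = 4 each), a difference smaller than the spread between libraries. Library 1 had the most even usage of each group. Between 4 and 8 segments were enough to make up 50% of Ighv reads with osteopontin, and between 5 and 8 without.

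The Ighv1 family, by far the largest with 53 of the 113 segments, took 53.9% ± 11.7 of Ighv reads with osteopontin and 56.2% ± 9.17 without (SD, n = 4 each). Its share came to 69.1%, 52.8%, 52.9% and 40.6% in osteopontin libraries 1, 2, A and B, against 63.7%, 54.5%, 62.6% and 43.9% in the null libraries. The B libraries were the lowest of each group. The Ighv5 family, with 10 segments, took 10.7% ± 5.35 with osteopontin and 9.34% ± 4.15 without. The 4 segments of Ighv14 took 8.32% ± 6.25 and 7.21% ± 4.45, and the pair of Ighv10 segments 6.02% ± 7.43 and 5.94% ± 5.31, with osteopontin first. The remaining families with a mean of at least 1% (Ighv2, Ighv3, Ighv6, Ighv7, Ighv8 and Ighv9) each overlapped between groups as well. The single Ighv16 segment was listed at 0 in all 8 libraries.

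**Figure D3:**
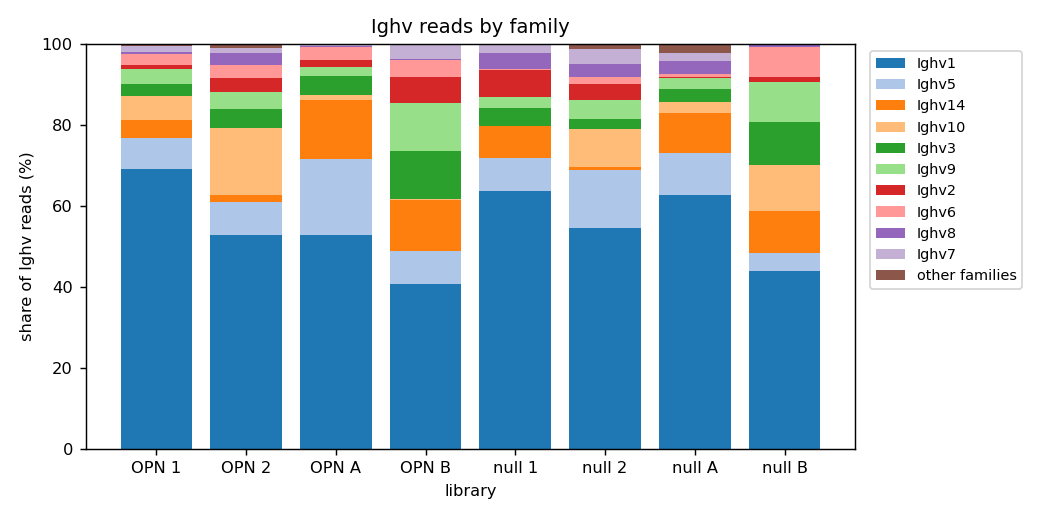
Share of Ighv reads (percent, axis from 0 to 100) by segment family, 1 bar per library, osteopontin (OPN) libraries left of null libraries. Ighv1 takes 40.6% to 69.1% with osteopontin and 43.9% to 63.7% without, and the smaller families change order from library to library.

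Ordered by position on the chromosome, the 38 segments nearest the diversity segments took 18.8%, 22.2%, 37.9% and 42.8% of Ighv reads in osteopontin libraries 1, 2, A and B, against 28.1%, 28.5%, 26.9% and 29.7% in the null libraries. The 37 farthest segments took 15.2% to 36.5% with osteopontin and 18.7% to 27.5% without. The osteopontin libraries lay both above and below the null range in each of these stretches. Ighv5-2 (113578504 to 113578990), the member nearest the diversity segments, was at 12.5 CPM in osteopontin library A and at no more than 0.41 CPM in the other osteopontin libraries, against 0 to 2.09 CPM in the null libraries.

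Segments linked to B-1a cells, a B cell subset with antibodies to phosphatidylcholine, were rare. Ighv11-2 (114048241 to 114048812) had 0.34, 2.62, 0 and 1.02 CPM in osteopontin libraries 1, 2, A and B, against 0.47, 1.19, 5.94 and 0.015 CPM in the null libraries. Ighv12-3 (114366521 to 114366954) stood at 0.061 to 0.91 CPM with osteopontin and at 0 to 4.67 CPM without. Both were highest in null library A, and values below 3 reads, which is 0.0420 to 0.0611 CPM over the 8 libraries, cannot be told from 0 at this depth.

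Ighv usage was closest between the osteopontin and null libraries named 2 and between those named A. Dissimilarity was measured as the Bray-Curtis distance of the shares, which is 0 for identical usage and 1 for no segment in common. The distance was 0.419 between osteopontin and null libraries 1, 0.233 between libraries 2, 0.337 between libraries A and 0.584 between libraries B. Pairs of osteopontin and null libraries with different names lay between 0.402 and 0.687 (12 pairs), pairs within osteopontin between 0.452 and 0.580 and pairs within null between 0.417 and 0.693 (6 pairs each). Libraries 2 of both groups were each other's nearest, as were libraries A. Osteopontin library 2 and null library A, at 0.402, came next. Osteopontin library 1 was nearest to null library 1, whose own nearest was null library A at 0.417. The B libraries were nearest to other libraries, osteopontin B to osteopontin A at 0.534 and null B to osteopontin 1 at 0.583.

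The variable segments of the T cell receptor beta chain (Trbv, 22 genes) had smaller distances, and their closest pairs were the libraries named 1, 2 and A. Their distances were 0.0754, 0.0839, 0.0885 and 0.160 between the osteopontin and null libraries named 1, 2, A and B, while the other 24 pairs lay between 0.115 and 0.191. Kappa light chain variable segments (Igkv, 101 genes) lay between 0.315 and 0.714 over all pairs, with 0.457, 0.315, 0.411 and 0.525 between the osteopontin and null libraries named 1, 2, A and B. By Igkv usage osteopontin library B was nearest to null library B, while osteopontin library 1 was nearest to null library A (0.433) and null library 1 to null library 2 (0.382). Reads per library were 30519 to 106253 for Ighv and 10900 to 16835 for Trbv, and the part of read and gene numbers in these distances was not tested. No p-value was computed for these distances, and the labels do not say what a shared name stands for.

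**Figure D4:**
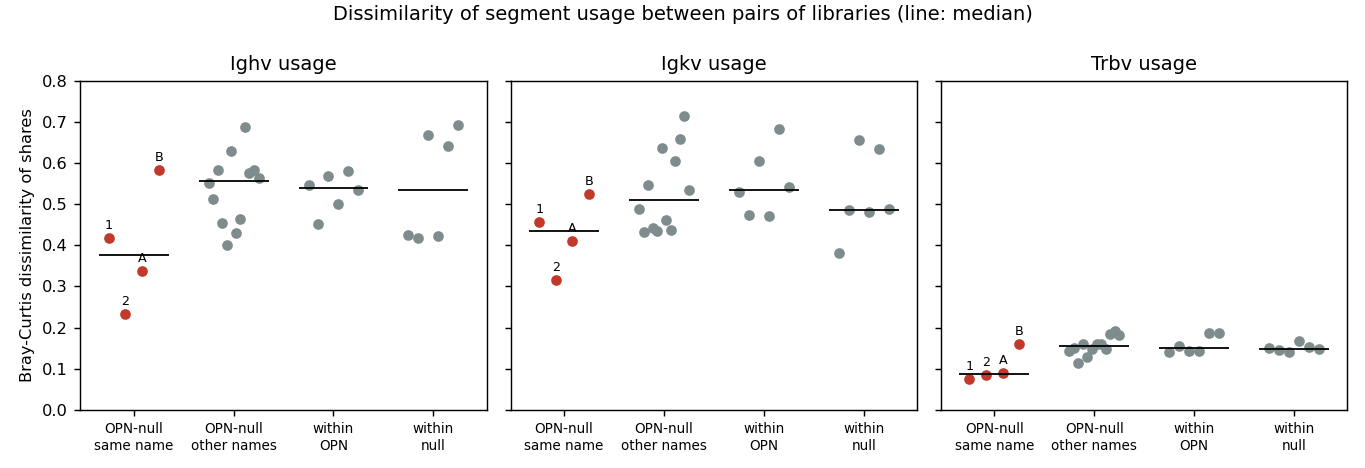
Bray-Curtis dissimilarity (0 to 1, axis shown from 0 to 0.8) of segment usage for all 28 pairs of libraries, by kind of pair (OPN, osteopontin), for Ighv, Igkv and Trbv; points are pairs, lines are medians, and same-name pairs carry their name. For Ighv the pairs named 2 and A lie at 0.233 and 0.337, below all other pairs, and the B pair lies at 0.584.

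No Ighv segment passed the test between osteopontin and null. In edgeR's quasi-likelihood test over 18631 genes, 80 of the 113 segments had enough reads to be tested. The filter asks for reads in several libraries, so the 33 untested segments include some that were high in 1 library. Ighv3-4 was at 20.8 CPM in null library B and at most 0.97 CPM elsewhere, and Ighv2-4 reached 15.7 CPM in osteopontin library B and no more than 0.028 CPM elsewhere (both named after their values were seen). 8 segments had fewer than 3 reads in every library. At an adjusted p under 0.05, 0 of 80 segments were higher and 0 were lower, as for all genes (0% in each direction), and the smallest adjusted p among the segments was 1.00 after rounding. By unadjusted p under 0.05, 1 segment was higher and 4 were lower; the shares over all tested genes were 1.85% higher and 2.08% lower. DESeq2 called 1 segment higher and 3 lower. Of the 80 segments, 34 were fitted higher and 46 lower. Their median log2 fold change was -0.16, beside 0.00 for all tested genes.

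Ighv14-1 (113931953 to 113932382) had the smallest p of the segments. It stood at 0.29, 0.34, 0.57 and 0.082 CPM in osteopontin libraries 1, 2, A and B, against 18.7, 0.53, 38.1 and 36.9 CPM in the null libraries. All 4 osteopontin libraries and null library 2 were under 1 CPM, and the other null libraries were at least 18.7 CPM, so the groups overlapped through null library 2. The log2 fold change was -6.18 (SE 1.39, 95% interval -9.55 to -2.81, edgeR adjusted p = 1.00, unadjusted p = 0.00397). Without null library 2 edgeR called Ighv14-1 lower (log2 fold change -6.59, adjusted p = 0.0164). Over the other edgeR alternatives its adjusted p ranged from 0.482 to 1.00. DESeq2 called it with all 8 libraries (adjusted p = 1.05e-04). Ighv14-2, whose coding sequence differs from that of Ighv14-1 at 10 bases, had a log2 fold change of 1.17 (95% interval -2.53 to 4.87). In the B libraries it went the other way from Ighv14-1, at 74.2 CPM with osteopontin and 1.35 CPM without. The Ighv14 family took 4.37%, 1.69%, 14.5% and 12.7% of Ighv reads in osteopontin libraries 1, 2, A and B. In the null libraries it took 7.92%, 0.714%, 9.89% and 10.3%. The part of dividing reads between these segments was not tested. The nearest member of Ighv14-1 was Ighv14-4, at 9 differing bases. Of the 31-base words of Ighv14-1 transcripts, 26.8% were found in no other Ighv gene or pseudogene, so its reads are uncertain individually.

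The next segments by p were each high in 1 to 3 libraries of a single group. Ighv5-12 (113702124 to 113702578) was at 0 to 0.24 CPM with osteopontin, against 7.46 CPM in null library A and 0.16 to 0.70 CPM in the other null libraries. Ighv5-9 (113661769 to 113662293) was at 0.034 to 0.57 CPM with osteopontin, against 0.30, 14.9, 2.75 and 21.5 CPM in null libraries 1, 2, A and B. Ighv7-3 (114153180 to 114153644) was at 5.42, 0.28, 4.54 and 19.5 CPM in osteopontin libraries 1, 2, A and B, against 0.55 to 1.49 CPM without. Ighv2-5 (113685482 to 113686045) was at 0.042 to 0.83 CPM with osteopontin, against 40.03 CPM in null library 1 and 0.31 to 3.04 CPM in the others. Their log2 fold changes were -4.93 for Ighv5-12, -5.39 for Ighv5-9, 2.93 for Ighv7-3 and -4.65 for Ighv2-5, all with an edgeR adjusted p of 1.00 after rounding. Single libraries carried much of 3 of these values: Ighv2-5 was at -1.68 without null library 1, Ighv5-12 at -2.66 without null library A and Ighv7-3 at 1.81 without osteopontin library B.

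The DESeq2 calls were Ighv7-3, higher, and Ighv14-1, Ighv5-9 and Ighv5-12, lower, among the 64 segments to which it gave an adjusted p, where over all genes it called 0.0766% higher and 0.185% lower. The groups did not overlap for 1 tested segment, which was lower with osteopontin, and for 0 that were higher, while 1.58% and 1.89% of all tested genes were lower and higher without overlap. That segment was Ighv9-1, named after its values were seen, at 0.34, 0.25, 0 and 0 CPM in osteopontin libraries 1, 2, A and B, against 0.78, 1.27, 1.24 and 0.51 CPM in the null libraries.

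The 10 most used segments had fold changes whose 95% intervals all held 0. Ighv1-26 stood at 212.0 ± 140.2 CPM with osteopontin and 234.2 ± 163.8 CPM without (SD, n = 4 each), a log2 fold change of -0.14 with a 95% interval of -2.02 to 1.74. The largest fold change among them was that of Ighv1-82, -1.70 (SE 1.18, 95% interval -4.57 to 1.16), which was -0.043 without null library B. The narrowest interval among the 10 most used segments was that of Ighv1-55, -0.78 to 1.65 around 0.43. The interval of Ighv3-6 ran from -0.97 to 2.01 and that of Ighv9-3 from -1.53 to 1.62. For 67 of the 80 tested segments the interval held both a 2-fold higher and a 2-fold lower level in this fit, which does not use the library names. With the library name as a replicate block, the log2 fold change of Ighv1-55 was 0.46 (edgeR unadjusted p = 0.00660, adjusted p = 0.907). This was the smallest p in that fit among the 18 named segments. Next were Ighv5-12 (-4.27, edgeR unadjusted p = 0.0184) and Ighv2-5 (-3.06, edgeR unadjusted p = 0.0296), both lower and neither called. The level of Ighv1-55 was higher with osteopontin in all 4 same-name pairs. The share of all genes that did so was not counted, nor the share with as small a p in that fit. How common such a result is therefore cannot be said.

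Ighv levels varied more between libraries of one group than those of most genes. The biological coefficient of variation, edgeR's estimate of the relative spread between libraries beyond counting error, had a median of 1.38 over the 80 tested segments and 0.351 over all tested genes, and 80 of 80 segments were above the median of all tested genes. This spread depends on the level. It was estimated from Salmon counts, and the part in it of dividing reads among similar segments was not tested. At mean levels between 2 and 6 on the log2 CPM scale, the median was 1.33 for 44 segments and 0.229 for 7031 genes. Segments with the lowest values were Ighv1-55 at 0.483, Ighv3-6 at 0.579 and Ighv9-3 at 0.612, and Ighv10-1 stood at 1.82.

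**Figure D5:**
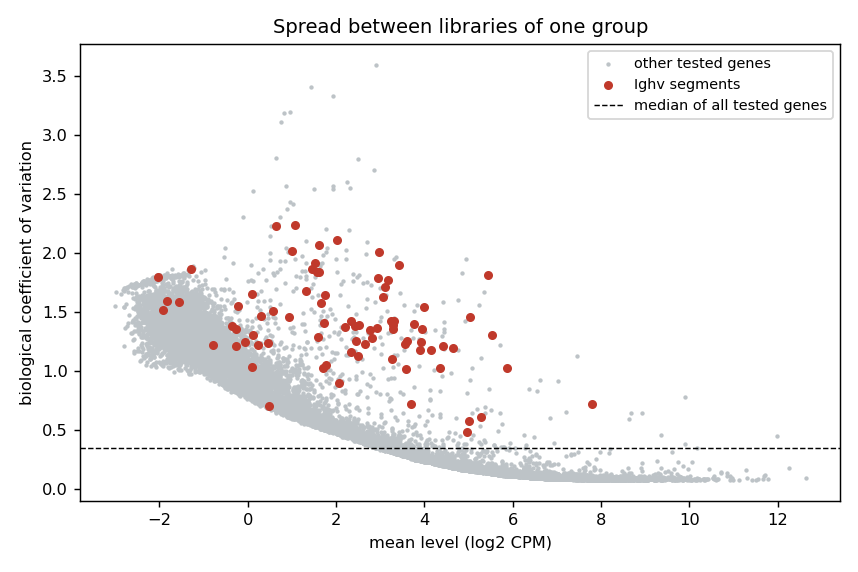
Biological coefficient of variation (linear axis) against mean level (log2 CPM) for the tested Ighv segments (red) and all other tested genes (grey); each point is a gene and the dashed line is the median of all tested genes, 0.351. All 80 segments lie above the line, from 0.483 to 2.24.

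Other genes of antibody expression did not pass the test either. Of 8 heavy chain constant genes 6 were tested, and 0 were called higher and 0 lower. Ighg2b, an IgG constant region, stood at 47.8, 71.7, 70.7 and 26.9 CPM in osteopontin libraries 1, 2, A and B, against 84.6, 139.5, 76.2 and 104.5 CPM in the null libraries. The groups did not overlap, while 1.58% of all tested genes were lower without overlap. The log2 fold change of Ighg2b was -0.90 (95% interval -1.77 to -0.02, edgeR unadjusted p = 0.0456, adjusted p = 1.00). Of all tested genes 2.08% were lower at an edgeR unadjusted p under 0.05. Ighg3, another IgG constant region, was at 2.02 to 113.8 CPM with osteopontin and at 0.092 to 41.1 CPM without. Ighd, the constant region of IgD on resting B cells, was at 89.8 ± 22.8 CPM with osteopontin and 115.7 ± 21.3 CPM without (SD, n = 4 each). Ighg1 reached at most 2.22 CPM with osteopontin and 4.68 CPM without, Ighg2c 4.59 and 0.36 CPM, and Ighe 0 and 0.014 CPM.

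Genes of the recombination and mutation machinery were low. Rag1 and Rag2, the recombinase, stayed at or under 0.50 CPM in every library. Dntt, which adds bases at the junctions, stood at 6.25 ± 2.23 CPM with osteopontin and 8.66 ± 2.48 CPM without (SD, n = 4 each). Of the 5 genes on this list 3 were tested and 0 were called in either direction. Variable segment promoters carry an octamer element bound by Pou2f1 and Pou2f2 with the coactivator Pou2af1. All 3 were tested and 0 were called. Pou2f2 stood at 67.3 ± 13.8 CPM with osteopontin and 82.3 ± 10.8 CPM without (log2 fold change -0.29, 95% interval -0.58 to -0.00087, adjusted p = 1.00 in edgeR). Of the 5 secretion genes, Jchain, Mzb1, Xbp1, Prdm1 and Irf4, 0 were called.

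All 12 B cell markers were above the floor of 3 reads in every library, as were the plasma cell markers other than Tnfrsf17 and Fkbp11 (named after their values were seen). The 12 B cell markers, such as Ms4a1 and Pax5, summed to 1103, 723.2, 853.0 and 404.8 CPM in osteopontin libraries 1, 2, A and B. In the null libraries of those names the sums were 1056, 842.9, 1012 and 1204 CPM, and the groups overlapped. As markers of a single cell type, they are not 12 independent observations. All 12 had a lower fitted level with osteopontin, with a median log2 fold change of -0.41 beside 0.00 for all tested genes, and 0 of 12 were called. The lowest B cell sum, 404.8 CPM, was that of osteopontin library B, which also had the lowest effective number of segments. Null library B had the highest B cell sum, 1204 CPM, and an effective number of 21.3, close to the 21.7 and 21.5 of null libraries 2 and A. The 8 plasma cell markers summed to 530.4 to 1138 CPM with osteopontin and 474.2 to 1210 CPM without, with 0 of 8 called. The T cell markers, which define most intraepithelial lymphocytes, summed to 3714 to 4065 CPM with osteopontin and 3516 to 4030 CPM without. The 5 fibroblast markers summed to 6.59 to 23.8 CPM with osteopontin and to 6.23 to 278.8 CPM without, with null libraries 1 (278.8 CPM) and A (142.8 CPM) the highest, and 0 of 5 were called. Macrophage and dendritic cell markers (6 genes) summed to 84.9 to 186.0 CPM with osteopontin and 96.7 to 176.4 CPM without. Most of this was Itgax, at 66.6 to 119.7 CPM with osteopontin and 76.7 to 124.1 CPM without. Csf1r and Adgre1 were at most 4.69 CPM, and no other gene of that list exceeded 30.03 CPM. Enterocyte markers (5 genes) summed to 297.5 to 356.1 CPM with osteopontin and 286.2 to 361.7 CPM without. Most of this was Cdh1, at 255.6 to 313.7 CPM with osteopontin and 243.9 to 317.2 CPM without. Epcam was at most 48.3 CPM, and Vil1 and Fabp1 at most 3.58 CPM. In either list 0 genes were called. None of the 12 B cell or 8 plasma cell markers was at 0 in all libraries. The part of these cell types in the Ighv results was not tested.

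Ighv genes annotated as pseudogenes (70) received 116, 183, 143 and 235 reads in osteopontin libraries 1, 2, A and B, against 91.1, 140, 393 and 3.15 reads in the null libraries. This was at most 0.771% of the Ighv reads of a library with osteopontin and 0.369% without.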

How the data were processed

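The authors deposited 1 transcript table per library. Salmon is the tool named, per the submitters' processing notes. Not given in the sources used here: its version, transcript set and build. Per the file headers each table gives an estimated count (reads assigned to a transcript, with reads shared by near-identical transcripts divided) and TPM; the deposited TPM served only in alternatives. Counts were summed per gene and rounded for tests. Salmon divides reads of similar segments by a model, and reads changed by hypermutation or spanning the junction may have been lost; neither was tested.

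Osteopontin was compared with null by edgeR 4.0.16 (quasi-likelihood F test, robust, two-sided, group only, TMM, filterByExpr with a minimum count of 10, Benjamini-Hochberg over 18631 genes, threshold 0.05), with DESeq2 1.42.0 as an alternative and the script tested on simulated data. SE is the fold change over the square root of F. Fold changes are osteopontin over null. Sums, shares and distances carry no p-value, since the members, the lists and the alternatives were chosen with earlier results of these data known. Named segments were the 10 with the highest mean share, those leading a library, the 5 with the smallest p, and 4 with a known role; from the lists of other genes, all constant genes and up to 4 others by p were eligible (Jchain, Rag1 and Rag2 are named outside the rule). Identity used global alignment in Biopython 1.88. Single values of some genes on the lists are not reported here.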

Additional observations from a re-analysis of the deposited data

Results flagged for a closer look

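In groups of 4 libraries, 1 library lay far from the other 3 in 13 of 82 groups of values examined. Its gap to the nearest library, divided by the range of the 4 libraries, was above Dixon's critical value. That value assumes normal values, and part of the segments examined were named from these same data, so no rate by chance is given. Most of the flagged values were single segments. Among segments set apart by 1 osteopontin library, Ighv10-1 was at 195.4 CPM in library 2 (others 0.31 to 1.56) and Ighv1-72 at 74.55 CPM in library A (others 0.53 to 9.16). Ighv5-2 was at 12.52 CPM in library A (others 0 to 0.41). Ighv5-12 was at 0.2385 CPM in library 1 (others 0 to 0.020), a low level that lay within its range in the null libraries. Among segments high in 1 null library, Ighv1-82 was at 96.12 CPM in library B (others 3.44 to 13.3), Ighv2-5 at 40.03 CPM in library 1 (others 0.31 to 3.04), Ighv5-12 at 7.46 CPM in library A (others 0.16 to 0.70) and Ighv12-3 at 4.671 CPM in library A (others 0 to 0.63).

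The Ighv5 family took 18.72% in osteopontin library A (others 7.68% to 8.24%), and the Ighv8 family 2.943% in osteopontin library 2 (others 0.20% to 0.51%). The effective number of segments was 27.35 in null library 1 (others 21.3 to 21.7). Ighm was at 933.2 CPM in osteopontin library 1 (others 783.6 to 808.2 CPM) and at 1473 CPM in null library B (others 815.5 to 920.3 CPM). The causes of these values were not tested.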

How the results depend on the processing

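Calls depended on the test. DESeq2 called 12 genes higher and 29 lower, among them 1 and 3 Ighv segments, and edgeR without the count filter called 3 higher and 1 lower, with no Ighv segment. Leaving out 1 library gave 0 to 2 genes higher and 0 to 35 lower, both highest without osteopontin library B, and 0 to 1 Ighv segments lower, the 1 being Ighv14-1 without null library 2. With the replicate name as a block, edgeR called 0 genes. Under this replicate block the log2 fold change turned to -0.057 for Ighv9-3, -2.08 for Ighv10-1, -0.50 for Ighv5-2, 0.23 for Ighv11-2 and 0.026 for Igha, none of them called in either fit. Deviations of same-named libraries from their group means correlated at 0.0712, 0.0485, 0.0437 and 0.122 for 1, 2, A and B over all tested genes. Over genes with a mean above 2 on the log2 CPM scale, chosen after seeing the data, the correlations were 0.125, 0.204, 0.138 and 0.160. Over all tested genes 7 of 8 libraries correlated best with their namesake, the exception being null library A. Over the genes above that level every library did. This is a hint of pairing from the data and not from the design. The main fit does not use the names, and its intervals leave any such pairing out.

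Of 24 fold changes, 10 changed sign in some alternative, and none of these was called. Leaving out 1 library, they ranged from -0.47 to 0.36 for Ighv1-26, -0.50 to 0.79 for Ighv5-17, -0.45 to 0.39 for Ighv9-3, -5.23 to 1.52 for Ighv10-1, -0.0091 to 0.86 for Ighv3-6, -3.40 to 0.48 for Ighv1-72, -2.60 to 2.77 for Ighv5-2, -2.08 to 0.83 for Ighv11-2, -2.29 to 0.44 for Ighv12-3 and -0.28 to 0.30 for Igha. The cause was not tested. The Ighv total, the effective number, the largest share and the family shares moved by less than the spread between libraries under every alternative run, but several differences turned. Leaving out 1 library, the log2 ratio of the Ighv total ran from -0.32 (without osteopontin A) to 0.18 (without null A), and osteopontin minus null, in percentage points, ran from -4.75 to 0.78 for the largest share, -7.40 to 2.08 for Ighv1, -1.31 to 3.06 for Ighv5, -3.41 to 2.02 for Ighv10 and -1.05 to 3.33 for Ighv14. Ighv2, Ighv3, Ighv6, Ighv7 and Ighv9 also turned, and Ighv8 (-2.51 to -1.30) and the effective number (-3.91 to -0.23) did not. The same-name distances moved by less than the spread with TPM or without Ighv1-26, both added after seeing the data.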
